A study of Mus musculus with 16 samples.

Results

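Tmem87a, Mybpc3, Snap23, Golm2 (older symbol Casc4), Disp2 and Mal are 6 genes of mouse chromosome 2 whose lung transcript level separated 2 mouse lines. They were chosen because they differed between the lines and lie on the chromosome of Rag1 and Rag2, so their difference between lines is given here as a description, with no test. They are 6 of 7276 genes tested, out of 9866 genes whose array label could be paired with a value. In the deposited table the labels are shifted against the values, and every gene name here rests on a realignment of 3 stretches of it, checked by how probe sets of the same gene correlate. The study measured whole lung RNA on Affymetrix arrays in a model of allergic asthma, 1 array per sample, at day 22 and 1 day after the last exposure. The 4 groups of 4 arrays were BALB/c after phosphate-buffered saline (PBS), BALB/c after ovalbumin (OVA, an egg protein used as the allergen), BALB-RAG after PBS and BALB-RAG after OVA. The labels give no age or sex, do not name the altered Rag gene, and do not say how the BALB-RAG line was made or whether animals were pooled. No label says that replicates are separate animals. The p-values therefore cover the variation among these samples alone, part or all of which could be technical.

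Rag1 and Rag2 lie side by side and encode the recombinase that assembles antigen receptor genes; without it, mature T and B cells do not form. Genes close to a locus on a chromosome tend to be inherited with it, so that a line bred to carry an allele can also carry flanking DNA from the strain in which the allele arose. Whether this bears on the values below was not tested. The genes themselves have unrelated roles. Tmem87a and Golm2 encode membrane proteins of the Golgi apparatus. Snap23 encodes a SNARE protein that drives the fusion of secretory vesicles with the cell surface, and Mal encodes a small raft-associated membrane protein of T cells and epithelia that takes part in sorting to the cell surface. Disp2 belongs to the family of Dispatched, the transporter that releases hedgehog ligands, and Mybpc3 encodes the myosin-binding protein C of heart muscle.

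Of the 6 genes, 5 matched the RefSeq promoter table of GRCm38.p6, which holds 250 bases before to 50 after each annotated start. Tmem87a and Snap23 are shown because they lie 0.16 Mb apart and differed between the lines in opposite directions. Mybpc3 is shown because its level followed heart muscle genes. The reference is C57BL/6J sequence, which is neither line of the study. Capitals mark CCGGAAG in Tmem87a, GCATGC in Snap23 and the MEF2 consensus in Mybpc3; both strands were searched, the marked matches overlap none of the others searched, and the motifs were picked after the sequences were seen.
Tmem87a, chr2:120404067-120404366, minus strand: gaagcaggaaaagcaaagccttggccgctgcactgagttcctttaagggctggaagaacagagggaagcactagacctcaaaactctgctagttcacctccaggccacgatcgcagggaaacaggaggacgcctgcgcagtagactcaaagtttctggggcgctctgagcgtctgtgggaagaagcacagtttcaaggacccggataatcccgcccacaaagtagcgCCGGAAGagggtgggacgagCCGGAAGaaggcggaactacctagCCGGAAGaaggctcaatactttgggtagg
Snap23, chr2:120567421-120567720, plus strand: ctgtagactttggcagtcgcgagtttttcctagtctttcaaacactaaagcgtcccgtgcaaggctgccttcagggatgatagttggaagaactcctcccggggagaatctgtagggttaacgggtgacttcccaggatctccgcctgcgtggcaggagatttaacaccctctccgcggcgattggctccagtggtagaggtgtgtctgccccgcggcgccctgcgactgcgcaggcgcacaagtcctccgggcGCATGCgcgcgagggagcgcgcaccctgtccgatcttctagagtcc
Mybpc3, chr2:91117894-91118193, plus strand: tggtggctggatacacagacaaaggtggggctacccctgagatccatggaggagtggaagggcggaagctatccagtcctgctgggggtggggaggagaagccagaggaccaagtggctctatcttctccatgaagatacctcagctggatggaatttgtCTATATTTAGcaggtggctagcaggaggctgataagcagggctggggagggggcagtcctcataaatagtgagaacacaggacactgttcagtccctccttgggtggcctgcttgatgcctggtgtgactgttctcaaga
CCGGAAG, the core that ETS factors recognise, was found in 9.12% of 27025 promoters of this length, and 3 or more times in 0.218% of them, among them Tmem87a. GCATGC, the centre of the palindrome bound by NRF1, was found in 7.94%. The MEF2 consensus, named for a family of muscle transcription factors, was found in 0.566%. The Mybpc3 window held 1 CpG, the Tmem87a window 15 and the Snap23 window 25. Of the others, GGGCGG was found in 35.9%, CCAAT in 37.9%, TATAAA in 14.2%, CACGTG in 7.24% and the CArG box in 1.57%. These are matches of letters and no evidence of binding.

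The series as a whole set some limits. Sftpc, the surfactant protein that marks alveolar type II cells, read 14.0 to 14.55 on the log2 scale on all 16 arrays. Rag2 read 2.84 to 4.2 over both lines, with 15 of 16 arrays under log2 4, which is taken here as background, so it checks no label; Rag1 was not analysed here. The arrays labelled BALB-RAG did not all lack lymphocyte transcripts. The mean of 13 T cell genes was 4.12 to 4.45 in BALB/c and 4.18 to 4.52 in the BALB-RAG group when both had received PBS. After OVA it was 4.85 to 6.30 in BALB/c, and on the arrays labelled BALB-RAG 4.94 on replicate 2 against 3.35, 3.58 and 3.44 on replicates 1, 3 and 4. The mean of 4 immunoglobulin genes was 7.66 to 9.22 in BALB/c and 8.03 to 9.64 in the BALB-RAG group with PBS. With OVA it was 10.12 to 12.21 in BALB/c. On the arrays labelled BALB-RAG it was then 10.42 on replicate 2 against 5.39, 5.22 and 5.56 on replicates 1, 3 and 4. Groups were kept as titled. On the 5 arrays labelled BALB-RAG with T cell transcripts the 6 genes lay on the same side of BALB/c as on the other 3. Their choice required this, so it says nothing about the labels of those arrays. Without replicate 2 after OVA the line differences after OVA ran from −2.52 for Disp2 to 3.97 for Tmem87a. Their sign could not change either, because the lines do not overlap for any of the 6.

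For each of the 6 genes, all 8 arrays labelled BALB-RAG lay on one side of all 8 BALB/c arrays. Tmem87a and Mybpc3 were higher under the BALB-RAG label, and Snap23, Golm2, Disp2 and Mal were lower. Of all tested genes 2.1% separated the lines in this way, 0.921% with BALB-RAG higher and 1.18% with BALB-RAG lower. The genes were chosen for this pattern, so the count is no result. The distance between the nearest arrays of the lines ranged widely, from log2 3.05 for Tmem87a, the widest of the 153 separating genes, and 1.07 for Disp2 to 0.25 for Golm2, 0.23 for Snap23 and Mybpc3 and 0.08 for Mal, which ranked 94.

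**Figure D1:**
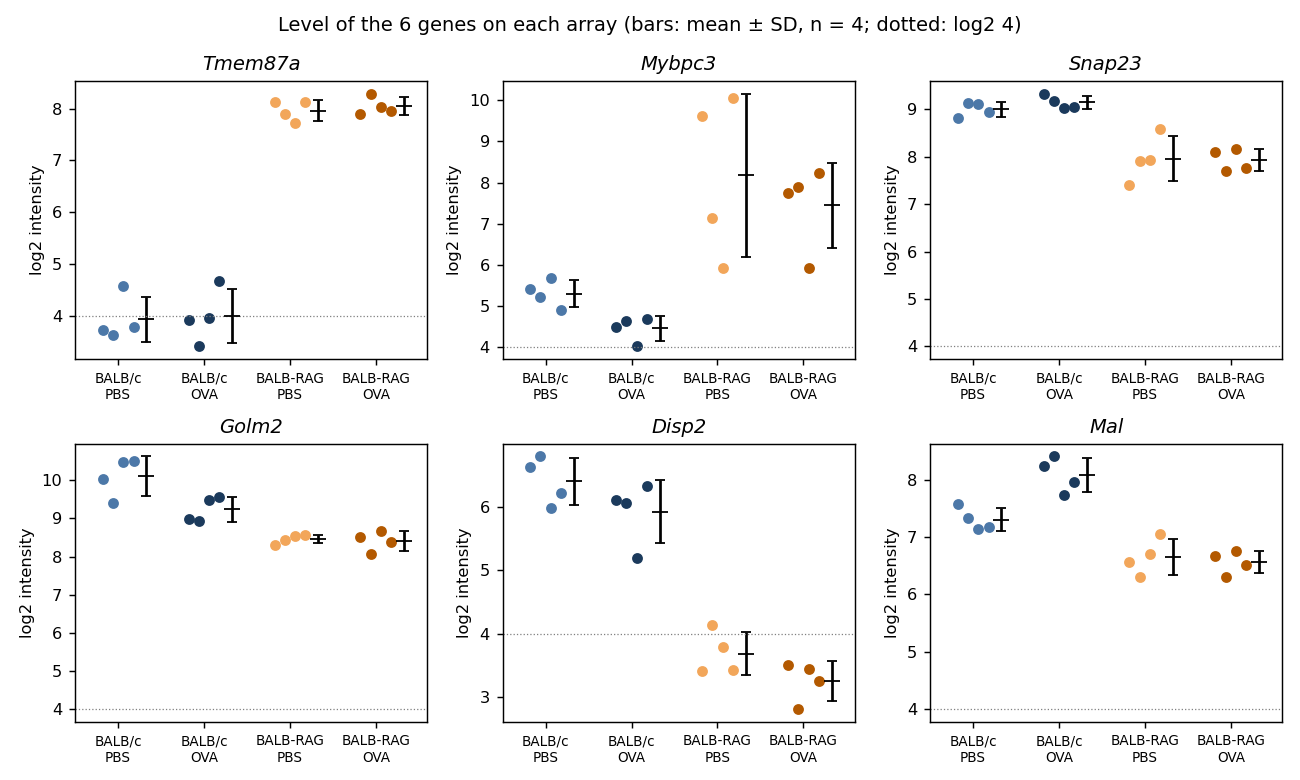
Log2 intensity of Tmem87a, Mybpc3, Snap23, Golm2, Disp2 and Mal on each of the 16 arrays (points, replicates 1 to 4 from left to right), with the mean ± SD of each group of 4 (bars) and log2 4 (dotted line). Tmem87a lies at 7.72 to 8.29 on all 8 arrays labelled BALB-RAG and at 3.41 to 4.68 on the BALB/c arrays, whereas Mybpc3 spreads from 5.92 to 10.05 among the arrays labelled BALB-RAG.

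Tmem87a, a Golgi membrane protein, read near background in BALB/c and well above it in the other line. Like Mybpc3, Golm2, Disp2 and Mal, it rests on 1 realigned probe set, so no other probe set checks its value. Its log2 intensity was 3.73, 3.63, 4.58 and 3.78 in BALB/c after PBS (replicates 1 to 4). OVA-exposed BALB/c arrays gave 3.92, 3.41, 3.95 and 4.68. Arrays labelled BALB-RAG gave 8.13, 7.89, 7.72 and 8.12 after PBS, then 7.90, 8.29, 8.03 and 7.96 with OVA. No array of one line came near the other line, and 6 of the 8 BALB/c arrays were under log2 4. As measured, the difference was 4.04 ± 0.24 after PBS and 4.05 ± 0.24 after OVA (log2, SE, n = 4 per group). Taking values under log2 4 as 4, these became 3.82 and 3.87, or 14.1-fold and 14.6-fold. Replicate 2 of the BALB-RAG group after OVA, whose T cell mean was the highest of that group, had the highest Tmem87a value of the 16 arrays.

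Disp2, the Dispatched relative, showed the opposite pattern. PBS-exposed BALB/c arrays read 6.63, 6.80, 5.99 and 6.22, and OVA-exposed ones 6.11, 6.06, 5.20 and 6.33. In the libraries labelled BALB-RAG the values were 3.41, 4.13, 3.79 and 3.42 with PBS and 3.51, 2.81, 3.45 and 3.26 with OVA. Of those 8 arrays 7 were under log2 4, whereas all BALB/c arrays were above it by more than 1 log2 unit. The Disp2 signal was 5.21-fold lower under the BALB-RAG label with PBS, taking values under log2 4 as 4. After OVA, where all 4 were under log2 4, it was at least 3.81-fold lower.

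Golm2 was abundant in both lines. In BALB/c it read 10.03, 9.41, 10.49 and 10.51 with PBS and 8.99, 8.92, 9.48 and 9.57 with OVA. The BALB-RAG libraries gave 8.31, 8.43, 8.53 and 8.56 with PBS and 8.51, 8.07, 8.67 and 8.37 with OVA. BALB/c after PBS was the highest group and BALB/c after OVA the next, with overlap between them (9.41 against 9.57); the BALB-RAG groups did not differ beyond their spread. The line difference was −1.65 ± 0.23 after PBS and −0.83 ± 0.23 after OVA, or 3.15-fold and 1.78-fold lower.

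Snap23, the vesicle fusion protein, was represented by 3 probe sets, and they did not show the same line difference. The brightest, used for the gene, read 8.81, 9.14, 9.11 and 8.94 in BALB/c with PBS and 9.33, 9.18, 9.02 and 9.05 with OVA. Its values under the BALB-RAG label were 7.41, 7.92, 7.94 and 8.58 with PBS and 8.09, 7.70, 8.17 and 7.76 with OVA. The difference was −1.04 ± 0.20 after PBS and −1.22 ± 0.20 after OVA. A second probe set separated the lines as well, with 7.98 to 8.67 in BALB/c against 6.74 to 7.74. The third overlapped, with 6.95 to 7.54 in BALB/c against 6.76 to 7.43, and differences of −0.17 after PBS and −0.34 after OVA. The Snap23 difference thus depended on the probe set, and averaging the 3 probe sets brought it to −0.76 and −0.85.

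**Figure D2:**
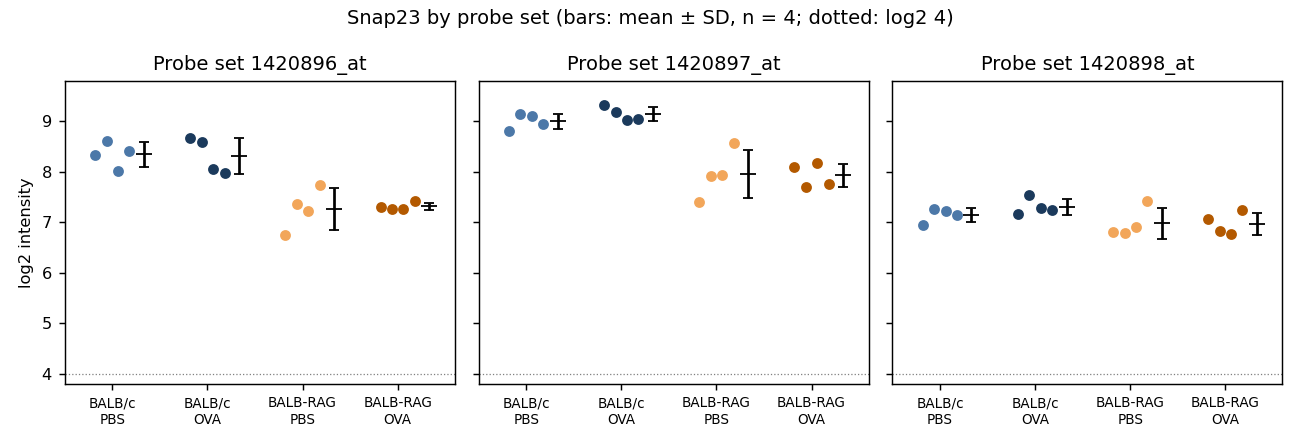
Log2 intensity of the 3 Snap23 probe sets on each array (points) with mean ± SD of each group of 4 (bars). The left and middle probe sets separate the lines, whereas in the right one they overlap between 6.95 and 7.43.

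Mal had the narrowest gap between the lines. BALB/c arrays read 7.58, 7.34, 7.14 and 7.17 with PBS and 8.25, 8.41, 7.73 and 7.96 with OVA. Those labelled BALB-RAG read 6.57, 6.30, 6.70 and 7.06 with PBS and 6.68, 6.31, 6.75 and 6.52 with OVA. BALB/c after OVA was highest, BALB/c after PBS next without overlap, and the BALB-RAG groups lay below and did not differ beyond their spread. The line difference was −0.65 ± 0.18 after PBS and −1.52 ± 0.18 after OVA. Within replicates 1 and 2 the difference after PBS was −1.02, and within replicates 3 and 4 it was −0.28.

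Mybpc3 differed from the other 5 in how it varied within a line. In BALB/c the values were 5.41, 5.21, 5.68 and 4.90 with PBS and 4.49, 4.64, 4.02 and 4.69 with OVA. Under the BALB-RAG label they were 9.62, 7.14, 5.92 and 10.05 with PBS and 7.74, 7.89, 5.92 and 8.23 with OVA. The SD of the BALB-RAG groups was 1.98 and 1.04, against 0.33 and 0.31 in BALB/c. The line difference was 2.88 ± 0.72 after PBS and 2.98 ± 0.72 after OVA, or 7.36-fold and 7.91-fold. Single arrays weighed on the value after PBS, which was 2.26 without BALB-RAG PBS replicate 4 and 3.63 without BALB-RAG PBS replicate 3.

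Heart muscle genes moved with Mybpc3. Whole lung can include heart muscle, which lines the large pulmonary veins of mice, and in whole tissue fewer cells of a type and less RNA per cell cannot be told apart. The mean of 15 tested heart muscle genes, Mybpc3 not among them, was 7.89, 7.52, 7.56 and 7.14 in BALB/c with PBS and 6.20, 6.15, 5.93 and 6.72 with OVA. In the BALB-RAG libraries it was 10.66, 9.13, 7.66 and 10.33 with PBS and 9.83, 9.64, 7.93 and 9.54 with OVA. Replicate 3 of each BALB-RAG group had the lowest heart muscle level and the lowest Mybpc3 of its group, and replicates 1 and 4 after PBS had the highest of both. On those replicate 3 arrays the heart muscle level, 7.66 and 7.93, was near the 7.14 to 7.89 of BALB/c after PBS, and Mybpc3 was 5.92 on both against 4.90 to 5.68. Across the 8 arrays labelled BALB-RAG, Mybpc3 and the heart muscle mean had Pearson's r = 0.94 (exact permutation test, two-sided, p = 0.00188, adjusted p = 0.015) and Spearman's rho = 0.86 (exact permutation p = 0.0107, adjusted p = 0.0856). Without the 2 arrays farthest from the median of the heart muscle mean, r was 0.90, and after removal of the exposure means it was 0.95. The adjustment covers 24 relations, between each of the 6 genes and heart muscle or T cell genes in each line; for BALB/c no r is given, because its OVA and PBS arrays formed separate clusters in both lists. Replicates 1 and 2 and replicates 3 and 4 hold too few arrays of a line for a value of their own. Of the other genes, Tmem87a had r = 0.58 with the heart muscle mean on the arrays labelled BALB-RAG (exact permutation p = 0.134, adjusted p = 0.292).

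**Figure D3:**
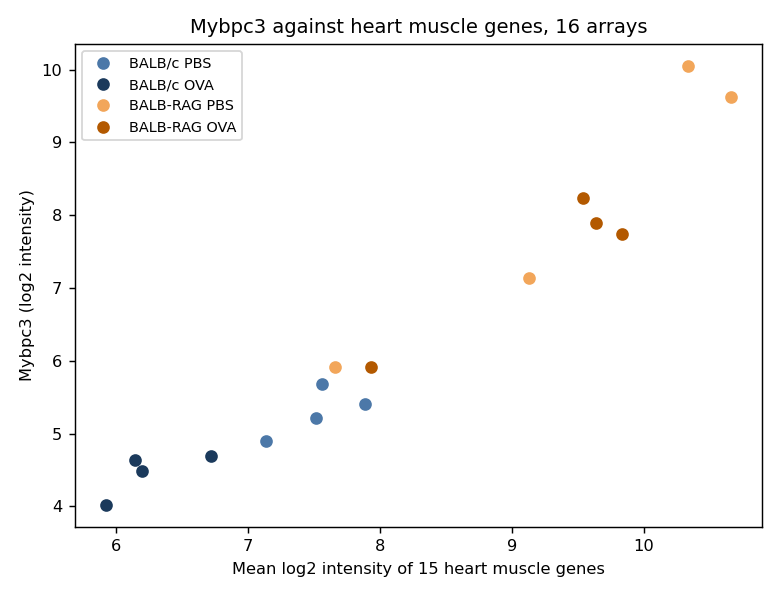
Mybpc3 (log2 intensity, vertical axis) against the mean log2 intensity of 15 heart muscle genes (horizontal axis) on the 16 arrays, coloured by group. Both are lowest in BALB/c after OVA, at 4.02 to 4.69 and 5.93 to 6.72, and the 2 arrays labelled BALB-RAG with Mybpc3 at 5.92 lie beside the BALB/c arrays after PBS.

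Of the heart muscle list, 25 genes long, the 15 tested genes had a median line difference of 1.77 after PBS, with 5 of 15 higher and 0 lower (limma, adjusted p under 0.05; 3.9% of all tested genes were called, 1.97% higher and 1.94% lower). After OVA 14 of 15 were higher, with a median of 3.15 (23.8% of all tested genes were called, 11.6% higher and 12.1% lower). The median over all tested genes was −0.01 after PBS and 0.01 after OVA. With PBS, Myh6, the main myosin heavy chain of the adult mouse heart, spanned 5.52 to 9.63 among the BALB-RAG libraries and 5.29 to 6.38 in BALB/c. Tnnt2, cardiac troponin T, spanned 9.57 to 12.09 and 9.32 to 9.84. The part of heart muscle RNA in the Mybpc3 difference was not tested beyond these values.

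The position of the 6 genes relative to Rag1 was taken from the RefSeq annotation of GRCm38.p6, matched by gene identifier. In the order of protein-coding genes on chromosome 2, Mybpc3 stood 45 places before Rag1. The other 5 stood after it, Disp2 by 135 places, Tmem87a by 177, Snap23 by 181, Golm2 by 212 and Mal by 277. In sequence the starts of Mybpc3, Tmem87a, Snap23, Golm2 and Mal were 10.53, 18.75, 18.92, 20.22 and 26.01 Mb from that of Rag1. They are thus on the same chromosome as Rag1 but none adjoins it.

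Between Mybpc3 and Disp2, the stretch that holds Rag1 and Rag2, 54 genes were tested and 0 of them separated the lines; their median absolute line difference was 0.16 after PBS, against 0.18 for all genes with a chromosome. From Disp2 to Golm2 7 of 33 tested genes separated the lines. Those 7 were Disp2, Tmem87a, Snap23 and Golm2 and 3 others, Mapkbp1, Zfp106 and Tubgcp4. Between Golm2 and Mal 0 of 20 did. Over the whole stretch from Mybpc3 to Mal the count was 9 of 109 (8.26%), and 3 of 103 (2.91%) without the 6 genes, against 2.67% of 449 genes on the rest of chromosome 2 and 2.11% of all genes with a chromosome. Since the 6 genes were picked from this stretch for separating the lines, these shares describe where such genes lie and test nothing. By chromosome the share ran from 0.388% on chromosome 14 to 3.76% on chromosome 2, with 3.17% on chromosome 19 next. The chromosome 2 share includes the 6 genes, so its rank is no result. Without them neither part of chromosome 2 given above (2.91% and 2.67%) reached the share of chromosome 19.

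**Figure D4:**
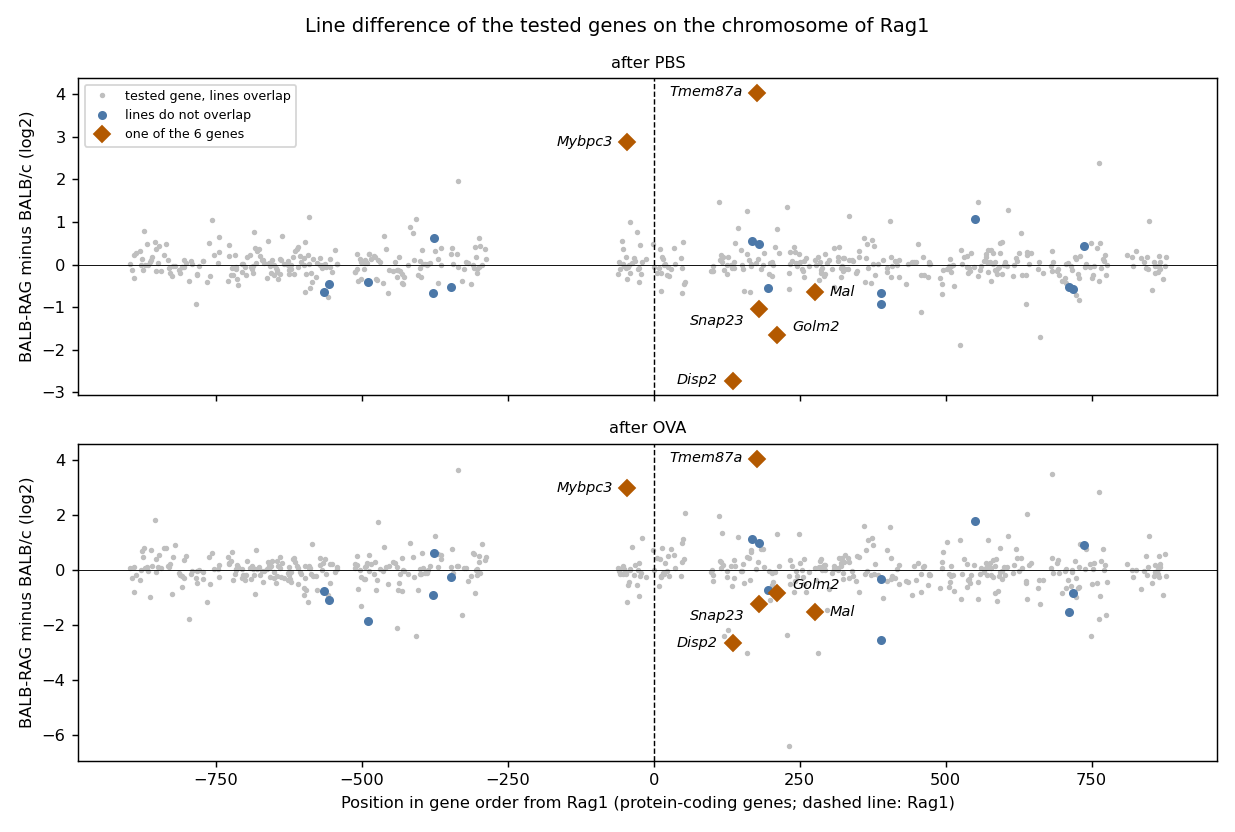
Line difference (BALB-RAG minus BALB/c, log2) of the 558 tested genes on chromosome 2 after PBS (top) and after OVA (bottom), by position in gene order from Rag1 (dashed line). Diamonds are the 6 genes, blue points other genes whose lines do not overlap and grey points the rest. After PBS no other gene of the chromosome differs as much as Tmem87a, which its choice favours. After OVA AA467197, which lies between Golm2 and Mal and whose lines overlap, differs more (−6.41 against 4.05 for Tmem87a). The 54 tested genes from Mybpc3 to Disp2 hold no separating gene.

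Genes beside the 6 differed less between the lines after PBS than the gene they adjoin, which the choice of the 6 favours. After OVA Zfp106 (0.97, adjusted p = 0.00073), Frmd5 (1.32, 0.0207), Stard9 (0.78, 0.0413) and Phgr1 (−0.59, 0.0202) passed the test between the lines (limma). In that comparison 23.8% of all tested genes were called. Zfp106, Frmd5 and Stard9 went against the direction of the gene they adjoin, and Phgr1 went with it. Vps39 and Ganc, the genes on either side of Tmem87a, differed by 0.04 and 0.13 after PBS and by 0.05 and 0.30 after OVA, and their lines overlapped. Zfp106, a zinc finger gene next to Snap23, went the opposite way to Snap23: it read 8.78 to 9.51 in BALB/c and 9.61 to 10.26 on the arrays labelled BALB-RAG. Mapkbp1, which stands between Disp2 and Tmem87a, was higher too, with 6.61 to 7.72 against 6.03 to 6.46. Tubgcp4, a gamma-tubulin complex protein that lies between Snap23 and Golm2, was lower, with 6.86 to 7.22 against 7.28 to 7.95, and was the only non-member of the stretch called in both line comparisons in the same direction (−0.54 ± 0.14 and −0.71 ± 0.14; limma, adjusted p = 0.0373 and 0.00138); 2.02% of all tested genes were. Mall, a relative of Mal that stands next to it, differed by −0.01 after PBS and −0.35 after OVA, with overlapping lines, and Mrps5, on the other side of Mal, by 0.11 and 0.06. Frmd5, the gene before Golm2, differed by 0.83 and 1.32, and Ctdspl2, after it, by 0.26 and 0.15. Beside Disp2, Phgr1 differed by −0.08 after PBS and −0.59 after OVA (adjusted p = 0.0202, limma), lower as Disp2 was, and Ivd by 0.07 and 0.38. Beside Mybpc3, Spi1 differed by −0.33 and −1.16 and Madd by −0.06 and −0.55, against the direction of Mybpc3. Stard9, the tested gene after Snap23, differed by −0.11 after PBS and 0.78 after OVA.

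Among genes other than the 6, the 3 most like each over the 16 arrays lay on other chromosomes, apart from Itga6 and BC018473. Itga6 lies on chromosome 2, and BC018473 had no chromosome assigned. Chromosome 2 holds 558 of the 7204 tested genes with a chromosome, so a small share there is no result. Likeness was the mean absolute difference between profiles, each centred on its mean and scaled to an SD of 1; the median over all tested genes was 1.08 to 1.14, and the choice of the 6 favours genes that separate the lines. Nearest to Tmem87a were Pam, a peptide-amidating enzyme (0.18), BC018473 (0.22) and Cap1, an actin regulator (0.25), all of which separated the lines in the same direction, by 2.72, 4.39 and 3.75 after PBS. Nearest to Mybpc3 were Pln, the phospholamban of heart muscle (0.16), the sarcomere formin Fhod3 (0.20) and Hspb7, a heat shock protein of heart and muscle (0.20); Pln and Hspb7 are also on the heart muscle list. Nearest to Snap23 were Zfp52 (0.19), Azin1 (0.22) and Pgap1 (0.30), and nearest to Golm2 were Ggps1 (0.26), Dll1 (0.32) and Aass (0.36). Nearest to Disp2 were Dnaja1 (0.30), Meox1 (0.30) and Itga6 (0.31), the last on chromosome 2 but 378 places before Rag1. Nearest to Mal were Dnajb11 (0.24), Ctsc (0.26) and Fam111a (0.26), whose lines overlapped.

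The response to OVA was not itself a rule for choosing the genes and was tested. Arrays of both exposures did enter the choice, because the lines had to lie apart over all of them. A large response toward the other line could have kept a gene out. How many of the chosen genes passed in either line may therefore depend in part on their choice. In BALB/c, Mal rose and Golm2 fell after OVA, and the other 4 did not pass the test (limma, Benjamini-Hochberg over 7276 genes; 15.5% of all tested genes were called, 8.73% higher and 6.78% lower). Mal rose by 0.78 ± 0.18 (SE, n = 4 per group, adjusted p = 0.00856), with 7.73 the lowest value after OVA and 7.58 the highest after PBS. T cell genes rose on the same arrays: 8 of 13 tested T cell genes rose and 0 fell, with a median of 1.32 against 0 for all genes, and Ctla4 among them rose by 1.91 ± 0.25 (adjusted p = 0.000108). Mal is itself a T cell transcript as well as an epithelial one, and the part of T cells in its rise was not tested. Within replicates 3 and 4 alone the rise of Mal was 0.69 (adjusted p = 0.0767), and within replicates 1 and 2 it was 0.87 (adjusted p = 0.0227).

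Golm2 fell by 0.87 ± 0.23 after OVA in BALB/c (adjusted p = 0.0158). The groups overlapped by 1 PBS array, replicate 2 at 9.41, which lay below OVA replicates 3 and 4. The call was lost without BALB/c OVA replicate 1 (adjusted p = 0.054) or 2 (0.061) and without BALB/c PBS replicate 3 (0.0577) or 4 (0.0588). Disp2 differed by −0.48 (95% interval −1.03 to 0.06, adjusted p = 0.243), Mybpc3 by −0.84 (−2.37 to 0.68, adjusted p = 0.521), Snap23 by 0.15 (−0.28 to 0.57, adjusted p = 0.718) and Tmem87a by 0.06 (−0.46 to 0.58, adjusted p = 0.922). Tmem87a was under log2 4 on 3 of 4 arrays in each BALB/c group, so a fall in BALB/c could not be seen. With only the BALB/c arrays in the fit, whose Mybpc3 spread was narrower, the Mybpc3 difference passed the test (adjusted p = 0.0304). In the same comparison 0 of 15 heart muscle genes rose and 2 fell, with a median of −1.38; the falls were Myl4, an atrial myosin light chain (−1.72 ± 0.44, adjusted p = 0.015), and Myoz2 (−2.39 ± 0.62, adjusted p = 0.0151).

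None of the 6 genes on arrays labelled BALB-RAG passed the test after OVA (limma; 0.165% of all tested genes did, 12 in all, 0.137% higher and 0.0275% lower), and none of the 6 had an unadjusted p under 0.05. Disp2 was under log2 4 on 7 of these 8 arrays; its difference was −0.43 as measured (95% interval −0.98 to 0.12) and −0.03 with values under log2 4 set to 4. The differences were −0.10 for Mal (−0.49 to 0.29) and −0.05 for Golm2 (−0.54 to 0.43). For Snap23 the difference was −0.03 (−0.45 to 0.39), for Tmem87a 0.08 (−0.44 to 0.60) and for Mybpc3 −0.74 (−2.26 to 0.78). On replicate 2 after OVA, where the T cell mean was 4.94, Mal was 6.31, and the other 3 arrays of the group read 6.52 to 6.75. All 4 BALB-RAG arrays with PBS also carried T cell transcripts, with Cd3d, a chain of the T cell receptor complex, at 4.88 to 5.93, and Mal read 6.30 to 7.06 there.

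**Figure D5:**
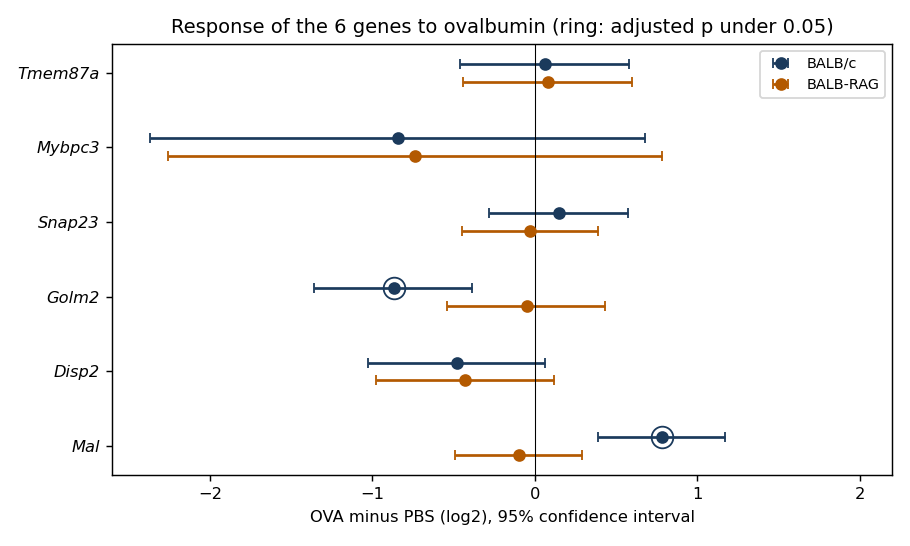
Difference OVA minus PBS (log2, with 95% confidence interval) of each of the 6 genes in BALB/c and on the arrays labelled BALB-RAG; rings mark adjusted p under 0.05. Only Golm2 (−0.87) and Mal (0.78) in BALB/c are ringed.

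The difference between the OVA responses of the lines was tested directly, and 1 of the 6 genes passed (limma; 8.49% of all tested genes did, 3.86% with the BALB-RAG response higher and 4.63% with it lower). It is also the change of the line difference with exposure, and genes picked for separating the lines after both exposures may be short of large values. For Mal the response on the arrays labelled BALB-RAG minus that in BALB/c was −0.87 ± 0.26 (95% interval −1.43 to −0.32, adjusted p = 0.0489). This call was lost in 13 of 16 fits with 1 array left out and held only without BALB-RAG PBS replicate 2, BALB/c OVA replicate 3 or BALB/c PBS replicate 1; without BALB-RAG OVA replicate 2 the value was −0.79 (adjusted p = 0.0908). For Golm2 the difference was 0.82 ± 0.32 (0.14 to 1.5, adjusted p = 0.14), and without BALB/c PBS replicate 2 it was 1.05 (adjusted p = 0.0265). Golm2 also passed the test, at the same 0.82, with the replicate number as a block (adjusted p = 0.0253) and with a term for replicates 1 and 2 against 3 and 4 (adjusted p = 0.0221). The other 4 had values between −0.18 for Snap23 and 0.10 for Mybpc3. The value for Tmem87a was 0.02 (−0.71 to 0.75), or 0.05 with values under log2 4 set to 4. The BALB/c response in it was measured near background, where a fall could not be seen. For Disp2 it was 0.05 as measured (−0.72 to 0.83) and 0.45 with values under log2 4 set to 4 (adjusted p = 0.43).

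Other genes of the pathways of the 6 were counted against the shares of all tested genes, 15.5% called after OVA in BALB/c and, between the lines, 3.9% after PBS and 23.8% after OVA. Of 18 tested SNARE genes and partners of Snap23, 3 rose after OVA in BALB/c and 0 fell, with a median of −0.01; Syngr2, a vesicle membrane protein (0.87 ± 0.17, adjusted p = 0.00232), and Stxbp2, a syntaxin-binding protein (0.54 ± 0.17, adjusted p = 0.0359), were among them. After PBS 0 of 18 differed between the lines and after OVA 3 were higher and 3 lower. Of 19 tested Golgi membrane genes 3 rose and 0 fell in BALB/c, with a median of 0.07; they were Tmed3 (0.72 ± 0.22, adjusted p = 0.0367), Mgat2 (0.57 ± 0.18) and Man1a (0.48 ± 0.15). Between the lines 1 Golgi gene was lower after PBS, Man1a (−0.60 ± 0.15, adjusted p = 0.0356), and after OVA 2 were higher and 3 lower. Of 7 tested hedgehog pathway genes 0 passed the test after OVA in BALB/c, with a median of −0.31; between the lines 1 was higher after PBS and 4 were higher after OVA, with a median of 0.76 against 0.01 for all genes. Cdon and Boc, coreceptors for hedgehog ligands, were among those 4 (0.89 ± 0.20 and 0.83 ± 0.20, adjusted p = 0.00332 and 0.00627). Of 6 tested genes related to Mal or resident in the same rafts, 1 fell in BALB/c: Cav2, a caveolin (−0.74 ± 0.14, adjusted p = 0.00171), whose response also differed between the lines (0.89 ± 0.19, adjusted p = 0.00991). Between the lines Mal2, a close relative of Mal, was lower after PBS (−1.11 ± 0.28, adjusted p = 0.0381), and after OVA 1 of the 6, Cav2, was higher (0.76 ± 0.14). After OVA 0 genes of these 4 lists passed the test on arrays labelled BALB-RAG.

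The lists of other lung and tissue cells moved as follows after OVA in BALB/c. Of 9 B cell genes 3 rose (median 1.22), of 4 immunoglobulin genes 3 rose (3.46), and of 4 club cell genes 3 fell (−1.38), among them Scgb3a2 (−0.89 ± 0.12, adjusted p = 0.000137). Of 7 alveolar epithelial genes 1 rose (−0.09), of 7 skeletal muscle genes 0 passed (−1.82), of 3 adipose genes 1 fell (−0.54) and of 2 neuron and glia genes 1 rose (−0.10). The skeletal muscle median rests largely on BALB/c PBS replicate 1, where the mean of the list was 9.27. Replicates 2, 3 and 4 read 3.62, 3.79 and 3.44, and the arrays after OVA 3.34 to 3.57. Between the lines after PBS, 2 of 3 adipose genes and 0 of 7 skeletal muscle genes were higher on the arrays labelled BALB-RAG. With PBS the adipose mean spanned 9.8 to 11.63 in the BALB-RAG libraries and 8.42 to 10.21 in BALB/c. Its part in the differences of the 6 genes was not tested.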

How the data were processed

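The 16 whole-lung samples were hybridised to Affymetrix arrays, 1 array each. Per the submitters' processing notes the deposited values were made with GCRMA (version and settings not given in the sources used here); they are intensity on a linear scale, 2.32 to 35181, and log2 was taken of the deposited values. Median intensity was 18.2 to 20.5 per array.

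In the deposited table the probe set labels are shifted against the values. Only 3 stretches with 14300 of 45101 labels were used: the first 4000 labels took the values 64 rows above, the middle 7500 those 47 rows below and the last 2800 those 16168 rows below. For the middle stretch, which holds Tmem87a and Snap23, an earlier description of the shift gave 47 rows above; 637 pairs of probe sets of the same gene above log2 6 had a median correlation of 0.618 at 47 rows below, against 0.027 (440 pairs) at 47 above and 0.129 (437 pairs) as deposited, so below was used. In the first and last stretch it was 0.666 and 0.63. All gene names rest on this pairing, inferred here from the values and the earlier description. Symbols came from the platform annotation: 13146 realigned labels had 1 symbol, 366 several and 788 none. Labels of Mal, Golm2, Disp2 and Rag1 outside these stretches were not used.

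Genes were tested where at least 4 arrays read above log2 4, and the probe set with the highest mean was kept. All 4 group means were fitted in limma 3.58.1 (R 4.3.3, 12 residual degrees of freedom), with Benjamini-Hochberg adjustment at 0.05. The fit was tested on simulated data. The 6 genes, the gene lists (T cells, B cells, immunoglobulins, heart muscle, skeletal muscle, adipose, alveolar epithelium, club cells, neurons and glia, SNARE partners, hedgehog pathway, Golgi membrane, Mal relatives and rafts) and the rules were chosen with earlier results of these data known. Named besides the 6 were the 3 genes with the nearest profile to each, genes of the stretch from Mybpc3 to Mal called in both line comparisons, tested genes next to each of the 6, and up to 3 genes per list by smallest p over the OVA comparisons, with marker genes fixed for array levels; Mapkbp1 and Zfp106 were also named for separating the lines after their values were seen. AA467197 was named for its line difference after OVA, also after its value was seen. The number of arrays limits the precision. Alternatives covered the filter, floor, scaling, probe set rule, replicate block, a term for replicates 1 and 2 against 3 and 4, the groups in the fit and each array left out.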

Additional observations from a re-analysis of the deposited data

Results flagged for a closer look

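Mal was singled out because its response to OVA differed between the lines by −0.87 log2 units (adjusted p = 0.0489, limma), with values of 0.78 in BALB/c and −0.10 on the arrays labelled BALB-RAG. Tmem87a in BALB/c after PBS was singled out because replicate 3, at 4.58, stood apart from the other 3 arrays (3.63 to 3.78), with a gap of 0.843 of the group's range, past Dixon's critical value. It was 1 of 24 sets of 4 arrays examined, and chance alone gives about 1 in 20.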

How the results depend on the processing

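The line differences of the 6 genes kept their sign under every alternative run. With 1 array left out or within replicate subsets the sign could not change, because the genes were chosen with lines that do not overlap. The rise of Mal in BALB/c kept its call in all 16 fits with 1 array left out (0.67 to 0.90). It also kept its call in all 8 other planned settings. Moved values were Snap23 after OVA, −0.85 with the mean of its probe sets, and Disp2 after OVA, −1.93 with values under log2 4 set to 4. In BALB/c, with only the 2 groups compared in the fit, Golm2 (−0.87, adjusted p = 0.068) lost its call and Mybpc3 (−0.84, adjusted p = 0.0304) gained one. Golm2 ranged from −1.10 to −0.74 with 1 array left out. For the difference between the responses, Mal ranged from −0.99 to −0.74 with 1 array left out and was −0.87 without the filter (adjusted p = 0.057). Golm2 there ranged from 0.69 to 1.05; with the replicate block it was 0.82 (adjusted p = 0.0253) and with the term for replicates 1 and 2 against 3 and 4 it was 0.82 (adjusted p = 0.0221).

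Replicate numbers were not taken to pair samples, because the correlation of deviations of same-numbered arrays went down to 0.025 for number 2. The lowest values for numbers 1, 3 and 4 were 0.121, 0.292 and 0.197, so all were positive, and the highest value was 0.497. Of 16 arrays, 6 correlated best with their own number. The main fit has no term for this shared variation. The replicate block gave 1764 called genes for OVA in BALB/c (1128 without it), 41 in BALB-RAG (12), 1152 for the difference between the responses (618) and 609 for the lines after PBS (284). The term for replicates 1 and 2 against 3 and 4 gave 1820, 67, 1214 and 635. With only the 2 groups compared the counts were 5 in BALB-RAG and 142 for the lines after PBS. The BALB-RAG count was 26 after quantile normalisation, 21 after centring on the median and 24 with the mean of probe sets. With 1 array left out, counts ranged from 775 to 1163 in BALB/c, 6 to 42 in BALB-RAG, 399 to 673 for the difference between the responses, 174 to 397 for the lines after PBS and 1314 to 1794 after OVA.

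Fits within replicates 1 and 2 or 3 and 4 were chosen after seeing the data. Replicates 1 and 2 gave 3 called genes in BALB-RAG, −0.77 for Golm2 in BALB/c (adjusted p = 0.0745), −0.82 for Mal in the difference between the responses, and line differences of −1.02 and −1.84 for Mal and 4.43 for Tmem87a after OVA. Replicates 3 and 4 gave 547 called genes in BALB/c, 5 in BALB-RAG, 212 for the difference between the responses, 52 and 693 between the lines, 0.69 for Mal in BALB/c, −0.93 for Mal in the difference between the responses, and line differences of −0.28 and −1.21 for Mal and 3.68 for Tmem87a after OVA. The causes of these changes were not tested.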
